A study of Rattus norvegicus with 9 samples.

Results

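The genes described here encode the enzymes that build triglyceride from glycerol 3-phosphate, together with the lipid droplet protein Pnpla3. Members were the listed symbols that are rows of both deposited count tables, which held for 7 of 8 symbols and made up 7 of 15565 genes. They were Gpam, Agpat2, Lpin1, Lpin2, Dgat1, Dgat2 and Pnpla3. Mogat1 was a row of only 1 table and is not a member. The data are RNA-seq counts from livers of male SD rats (the strain name as labelled), in 9 libraries. Normal diet rats, high-fat diet rats (8 weeks of the diet, given to induce fatty liver disease) and SCL-treated rats had 3 libraries each. The source labels read rat wt for the normal diet libraries, rat model for the high-fat diet libraries and rat treated with SCL for the others. They give no genotype beyond wt. SCL is the labels' short form of the plant Smilax china L. The SCL-treated livers carry the same tissue label as the high-fat diet livers, non-alcoholic fatty liver, but the labels state no diet, dose or duration for them. Where the design text writes SCS, the labels write SCL, and these were read as 1 group. Age is not stated. Whether each library is 1 animal is not stated either, and the p-values then reflect only variation among these libraries, part of which may be technical.

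In liver, triglyceride is made mainly by stepwise acylation. A glycerol 3-phosphate acyltransferase (Gpam in mitochondria) adds the first fatty acid, an AGPAT enzyme adds the next to give phosphatidic acid, and a lipin removes the phosphate to give diacylglycerol. Dgat1 and Dgat2, which are unrelated in sequence, add the last fatty acid, and the product is stored in droplets or exported in lipoproteins. Diacylglycerol also feeds phospholipid synthesis. Mogat1 starts from monoacylglycerol instead. Gpam and Pnpla3 are known as targets of the insulin-responsive factor SREBP-1c, and lipin 1 also acts in the nucleus as a coactivator.

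Libraries held 12413774 to 15521648 reads. Transcripts of the mitochondrial genome took 3.85% to 11.2% of reads on the normal diet and 4.90%, 18.8% and 44.1% in high-fat diet replicates 1, 2 and 3. In the SCL-treated replicates they took 10.97%, 49.0% and 7.04%. High-fat diet replicate 3 and SCL-treated replicate 2 thus stood apart from the other 7 libraries, and values that change most when they are left out are also given without them. All 8 hepatocyte markers examined were present, and their summed level was 73138 to 235835 CPM (reads per gene as counts per fixed library size, TMM-scaled). In the same 2 libraries it was 74417 and 73138 CPM, the lowest of the 9. Muscle markers summed to at most 4.85 CPM and enterocyte markers to at most 3.98 CPM. Of 7 adipocyte markers 5 were analysed. They summed to 79.6 to 116.5 CPM, most of it from Cidec (mean 60.7 CPM), a lipid droplet gene that fatty hepatocytes also express, while Plin4 reached at most 0.695 CPM.

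The first question is how much of each transcript the liver held. FPKM, which divides by gene length, was used to compare genes within a library. Dgat2 was the most abundant member, with 59.2 to 143.2 FPKM and a mean of 96.2. Agpat2 followed with a mean of 56.98 FPKM (6.77 to 91.8), then Dgat1 with 18.8 (12.1 to 24.8), Gpam with 10.1 (1.47 to 30.7), Lpin1 with 6.61 (1.95 to 15.2) and Lpin2 with 5.83 (4.22 to 10.96). Neighbours in this order were compared over the 9 libraries by exact two-sided sign-flip permutation tests of the log2 FPKM ratio, adjusted over 5 pairs. The order came from the mean FPKM of the same 9 libraries. The pairs were thus chosen from the values tested, and the p-values are a description, not independent support for the order. Dgat2 exceeded Agpat2 in 8 of 9 libraries (adjusted p = 0.029), Agpat2 exceeded Dgat1 in 8 of 9 (adjusted p = 0.029) and Dgat1 exceeded Gpam in 7 of 9 (adjusted p = 0.046). Gpam and Lpin1 (mean log2 ratio 0.31 ± 1.07 SD, adjusted p = 0.51) and Lpin1 and Lpin2 (-0.11 ± 1.07 SD, adjusted p = 0.75) were not separated by more than their spread.

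Pnpla3, a patatin-like lipid droplet protein, was barely detected. Its reads were 2, 0 and 0 in normal diet replicates 1, 2 and 3, 3, 0 and 7 on the high-fat diet, and 0, 0 and 2 with SCL. A count of 0, found in 5 of 9 libraries, allows a level of up to 0.197 to 0.242 RPM, the same unit without TMM scaling, at the depths of these 5 (3 reads of the library total, counting error only). Pnpla3 did not pass the count filter and no fold change is given for it. Mogat1 had 0, 2 and 1 reads in the normal diet replicates and 0 in each high-fat diet replicate, and its SCL-treated values are not analysed here. Differences between groups were not detectable for either gene at this depth.

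Dgat2 took a larger part of the members' summed FPKM in every fatty liver library than in any normal diet library. This share does not depend on how libraries are scaled against each other, but since the shares sum to the whole, it also rises when the other members fall. It was 44.2%, 38.3% and 36.6% in normal diet replicates 1, 2 and 3, and 51.2%, 58.5% and 54.6% on the high-fat diet. With SCL it was 49.8%, 68.7% and 55.5%. The share of Agpat2 ran the other way on the high-fat diet, with 25.1%, 22.2% and 18.2% against 31.3%, 36.3% and 45.2% on the normal diet, and was 31.6%, 5.36% and 32.3% with SCL. The level of Dgat2 itself was 74.3 to 99.4 FPKM on the normal diet. It was 143.2, 89.7 and 59.2 FPKM on the high-fat diet and 96.1, 86.7 and 129.5 FPKM with SCL. Only high-fat diet replicate 1 and SCL-treated replicate 3 exceeded the normal diet range. In high-fat diet replicate 3 the level of Dgat2 was the lowest of the 9 libraries. There the members' sum was 108.4 FPKM against 202.9 to 229.5 FPKM on the normal diet. The shares were singled out after their values were seen and are given without a test.

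**Figure D1:**
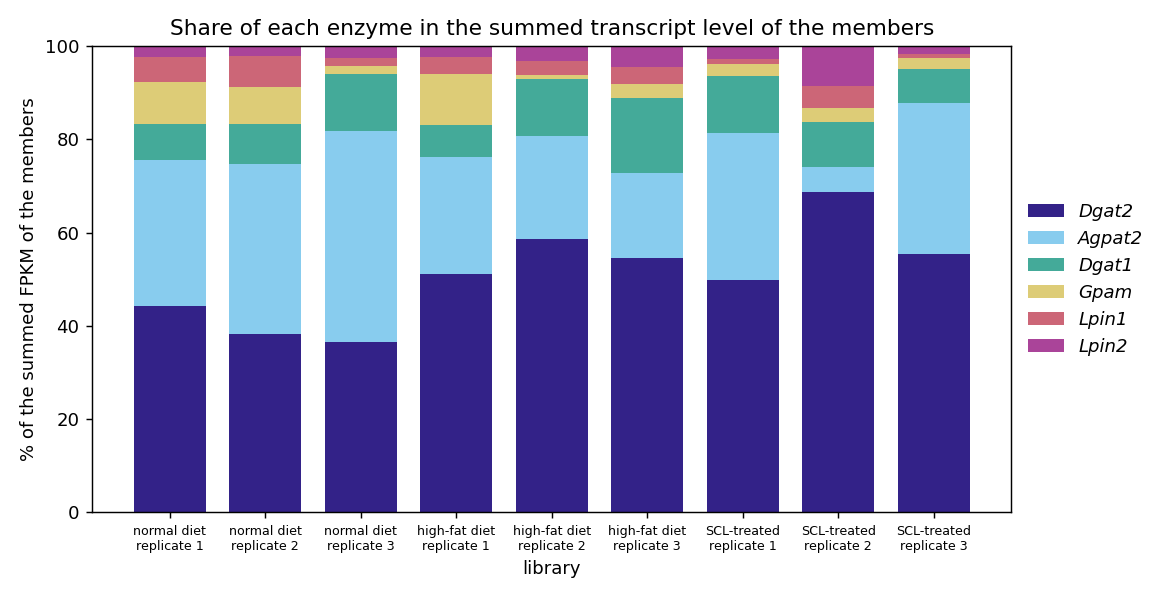
Share of each member in the summed FPKM of the members (vertical axis, %), 1 stacked bar for each of the 9 libraries (horizontal axis). The lowest segment, Dgat2, lies between 36.6% and 44.2% in the normal diet libraries and between 49.8% and 68.7% in the high-fat diet and SCL-treated libraries.

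Over the 9 libraries Gpam, Agpat2 and Lpin1 varied more than Lpin2, Dgat1 and Dgat2. The promoters of Gpam and Lpin1, whose 3 highest values fell in the same libraries, are shown beside those of Agpat2 and Lpin2, the other enzymes of these steps. Each sequence is the 250 bases before the RefSeq start, 5′ to 3′ on the gene's strand. Gpam lies at chr1:264175912-264176161 (minus strand), Lpin1 at chr6:45108943-45109192 (minus), Agpat2 at chr3:29826158-29826407 (minus) and Lpin2 at chr9:118530105-118530354 (plus), all in GRCr8. Capitals mark matches, on either strand, to any of 5 motifs. The E-box was searched as CACGTG. The motif that resembles a sterol regulatory element was searched as TCACNCCAC. The CCAAT box was searched by the letters of its name. The GC box was searched as GGGCGG. The cyclic AMP response element was searched as TGACGTCA.
Gpam: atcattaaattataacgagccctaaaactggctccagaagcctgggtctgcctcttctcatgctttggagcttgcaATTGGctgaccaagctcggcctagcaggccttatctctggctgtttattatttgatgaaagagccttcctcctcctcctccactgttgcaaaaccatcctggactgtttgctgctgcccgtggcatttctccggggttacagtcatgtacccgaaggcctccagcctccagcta
Lpin1: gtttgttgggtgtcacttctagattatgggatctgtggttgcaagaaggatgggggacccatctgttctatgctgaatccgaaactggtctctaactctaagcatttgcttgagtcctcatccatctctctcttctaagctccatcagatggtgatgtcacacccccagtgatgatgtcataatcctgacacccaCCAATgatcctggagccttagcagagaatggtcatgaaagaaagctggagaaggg
Agpat2: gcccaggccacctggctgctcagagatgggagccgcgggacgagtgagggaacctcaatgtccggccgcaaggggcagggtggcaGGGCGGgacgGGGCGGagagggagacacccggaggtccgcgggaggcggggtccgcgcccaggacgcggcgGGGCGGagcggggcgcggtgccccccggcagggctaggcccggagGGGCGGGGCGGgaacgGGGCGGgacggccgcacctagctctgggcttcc
Lpin2: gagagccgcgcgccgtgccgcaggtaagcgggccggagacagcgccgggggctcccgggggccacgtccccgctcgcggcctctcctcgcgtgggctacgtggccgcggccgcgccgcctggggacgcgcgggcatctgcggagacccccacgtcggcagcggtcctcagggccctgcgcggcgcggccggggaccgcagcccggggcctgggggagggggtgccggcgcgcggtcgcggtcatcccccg

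The windows of Gpam and Lpin1 are of average base composition, with 51.2% and 47.2% G and C against a median of 51.2% over 33469 RefSeq promoters of the same length. Those of Agpat2 (78.4%) and Lpin2 (82.4%) are richer in G and C than 98.3% and 99.5% of promoters. Gpam has 1 CCAAT match, starting at position -174, and Lpin1 has 1 at -55, a motif found in 34.0% of promoters. Agpat2 has 6 GC boxes, 2 of which overlap by 1 base, a motif found in 30.5% of promoters. No match to the E-box (5.59% of promoters), the sterol-type motif (0.974%) or the cyclic AMP motif (1.59%) is in these 4 windows. The window of Pnpla3, which is not shown, has 1 cyclic AMP match, starting at -58. It also has 2 CCAAT matches and 2 GC boxes.

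Gpam catalyses the first acylation. It stood at 55.4, 48.7 and 10.2 CPM in normal diet replicates 1, 2 and 3, at 76.0, 4.71 and 10.7 CPM on the high-fat diet and at 14.8, 14.4 and 18.7 CPM with SCL. High values of 48.7 to 76.0 CPM occurred in 3 libraries, normal diet replicates 1 and 2 and high-fat diet replicate 1, and the other 6 reached at most 18.7 CPM. The groups overlap in every comparison.

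Lpin1, a lipin, removes the phosphate of phosphatidic acid. It stood at 34.9, 41.2 and 10.05 CPM on the normal diet, 25.7, 14.7 and 13.99 CPM on the high-fat diet and 6.19, 21.5 and 6.76 CPM with SCL. Its 3 highest values, 25.7 to 41.2 CPM, fell in the same 3 libraries as those of Gpam. These were also the 3 libraries with the least mitochondrial RNA, at most 4.90% of reads, while the other 6 held at least 7.04%.

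Agpat2, the AGPAT enzyme of liver and fat that makes phosphatidic acid, stood at 71.2, 80.8 and 101.7 CPM on the normal diet. It stood at 63.1, 39.7 and 24.4 CPM on the high-fat diet, with no overlap between the groups, and at 65.8, 9.02 and 93.8 CPM with SCL. The lowest values of the 9, 9.02 and 24.4 CPM, fell in the 2 libraries over 40% mitochondrial. Lpin2 was steady at 28.8, 26.8 and 32.8 CPM on the normal diet and 31.3, 31.5 and 31.8 CPM on the high-fat diet. With SCL it was 32.3, 79.8 and 28.6 CPM, where the high value is SCL-treated replicate 2.

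The enzymes of the last step varied least. Dgat1 stood at 27.96, 30.1 and 43.4 CPM on the normal diet, 27.1, 34.2 and 33.8 CPM on the high-fat diet and 39.7, 25.5 and 33.3 CPM with SCL. Dgat2 stood at 286.3, 242.8 and 234.4 CPM on the normal diet, 366.4, 297.8 and 208.2 CPM on the high-fat diet and 294.8, 329.2 and 458.7 CPM with SCL. All 3 SCL-treated values of Dgat2 lie above all 3 normal diet values. The SD of log2 CPM over the 9 libraries was 0.25 for Dgat1 and 0.35 for Dgat2, below the median of 0.51 over 12041 genes, and 1.31 for Gpam, a value larger than that of 96.2% of genes. It was 1.12 for Agpat2, 0.97 for Lpin1 and 0.47 for Lpin2.

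**Figure D2:**
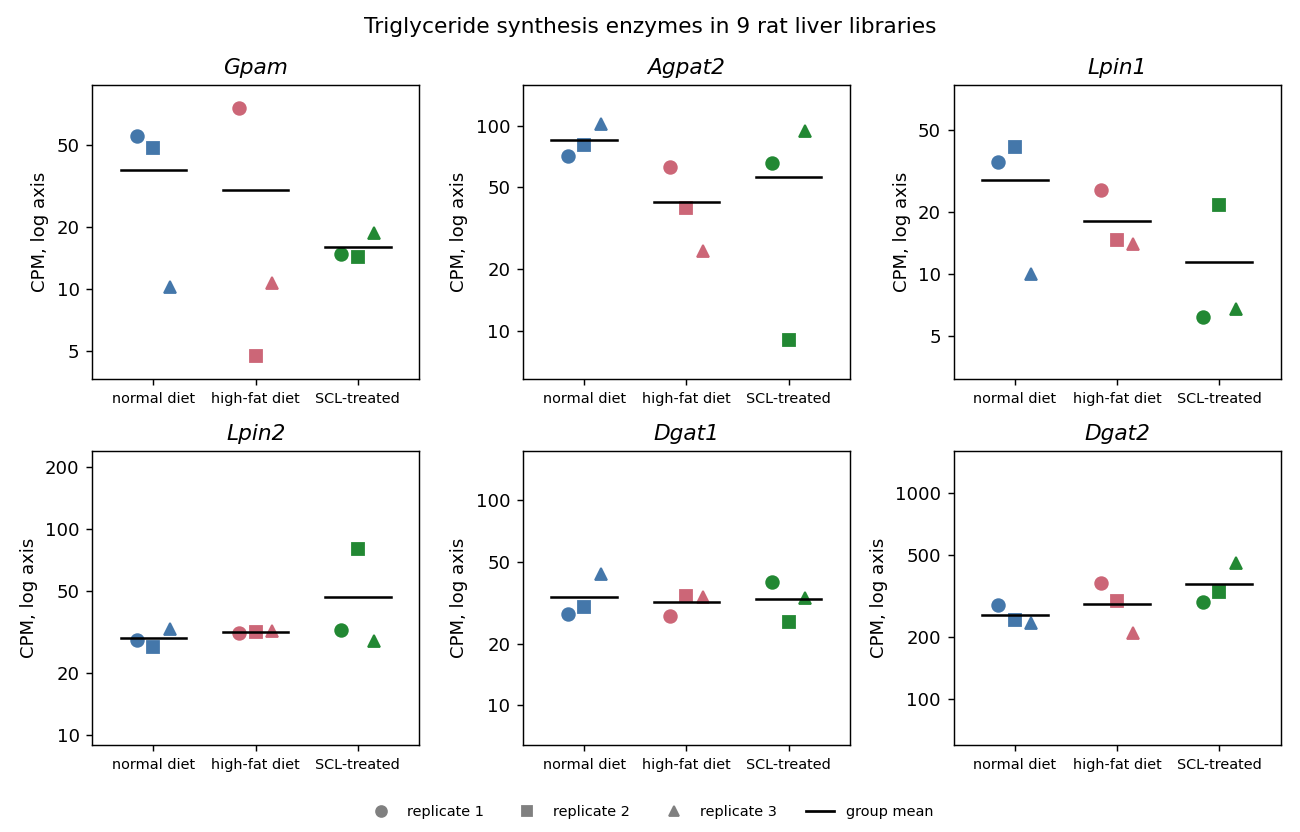
TMM-scaled CPM (vertical log axis spanning the same fold range in each panel) of the 6 tested members in each library, by group (horizontal axis); symbols give the replicate and black lines the group means. Gpam spreads from 4.71 to 76.0 CPM, while Dgat1 stays between 25.5 and 43.4 CPM in all 9 libraries.

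The comparison of high-fat with normal diet asks what the diet changed. None of the 6 tested members passed the edgeR threshold, where 0.0083% of all genes did, and none had an unadjusted p under 0.05, where 4.32% of genes did. DESeq2 called 0 members (0.415% of genes) and limma-voom 0 (0.216%). The groups did not overlap for 1 member, Agpat2, and for 10.6% of all genes. High-fat diet livers averaged 42.4 ± 19.5 CPM of Agpat2 and normal diet livers 84.6 ± 15.6 CPM (SD, n = 3 each), a log2 fold change of -0.99 (SE 0.64, 95% interval -2.42 to 0.43, edgeR adjusted p = 0.91). The spread behind this SE was estimated over all 9 libraries, among them SCL-treated replicate 2 with 9.02 CPM of Agpat2. Fitted on only the 6 libraries compared, the value was -0.998 (SE 0.36, edgeR adjusted p = 0.85). Without SCL-treated replicate 2 it was -0.999 (SE 0.35, edgeR adjusted p = 0.70). In the authors' deposited table the Agpat2 log2 fold change is 1.00 for normal over high-fat diet, with a p of 0.017 and an adjusted p of 0.52. The summed level of the hepatocyte markers was 157072 to 193006 CPM on the normal diet. In high-fat diet replicates 1, 2 and 3 it was 146526, 152674 and 74417 CPM, with Agpat2 at 63.1, 39.7 and 24.4 CPM. High-fat diet replicate 3 is over 40% mitochondrial. Of the 8 hepatocyte markers 8 had a negative log2 fold change, none called. The 7 macrophage markers summed to 144.0 to 310.9 CPM against 304.2 to 441.3 CPM, and 7 of 7 were negative, none called. The 6 stellate cell markers summed to 52.8 to 73.9 CPM against 77.9 to 113.2 CPM without overlap (4 of 6 negative, median -0.38), and the 5 sinusoidal endothelium markers to 127.0 to 169.8 CPM against 158.1 to 210.7 CPM (3 of 5 negative). Of 4 adipocyte markers tested 1 was negative (median 0.24). In bulk tissue, fewer cells of a type and less RNA per cell cannot be told apart, and the part of either in the Agpat2 difference was not tested.

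The other members had small or very uncertain differences on the high-fat diet. Lpin1 had a log2 fold change of -0.66 (SE 0.58, 95% interval -1.95 to 0.62), which was -0.32 when normal diet replicate 2 was left out, -1.07 for replicate 3 of that group and -1.01 for high-fat diet replicate 1. Gpam had a log2 fold change of -0.32 (SE 0.86, -2.22 to 1.58). The sign of the Gpam difference turned to positive when normal diet replicate 1 was left out (0.048), and likewise for replicates 2 (0.18) and 3 (0.081) of the high-fat diet, and it was -2.32 without replicate 1 of that diet. Dgat1 stood at -0.095 (SE 0.27, -0.69 to 0.50), Lpin2 at 0.098 (SE 0.36, -0.71 to 0.90) and Dgat2 at 0.19 (SE 0.31, -0.49 to 0.88). The intervals of Dgat1, Dgat2 and Lpin2 lie within 1 log2 unit of no change, and those of Gpam, Agpat2 and Lpin1 do not. The median over the 6 was -0.21, with 4 negative, against a median of 0.034 and 47.2% negative over all genes.

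The comparison of SCL-treated with high-fat diet rats asks what SCL changed. None of the 6 members was called by edgeR, which called 0% of all genes, and none had an unadjusted p under 0.05 (1.95% of genes). DESeq2 called 0 members (0.0083% of genes) and limma-voom 0 (0% of genes). The groups overlapped for every member, and did not for 4.78% of genes. Lpin2 had the lowest p of the members, with a log2 fold change of 0.57 (SE 0.36, 95% interval -0.23 to 1.38, edgeR adjusted p = 1.00). Its difference rested on SCL-treated replicate 2 and was -0.045 without it. Gpam stood at -0.94 (SE 0.87, -2.87 to 0.99), and without high-fat diet replicate 1 it stood at 1.06. Lpin1 stood at -0.66 (SE 0.59, -1.97 to 0.64), Agpat2 at 0.41 (SE 0.64, -1.01 to 1.82), Dgat1 at 0.052 (SE 0.27, -0.55 to 0.65) and Dgat2 at 0.31 (SE 0.31, -0.37 to 0.995). Without SCL-treated replicate 2 Lpin1 stood at -1.48 and Agpat2 at 0.91. Without SCL-treated replicate 3 Agpat2 turned negative, to -0.18, and Dgat2 stood at 0.097. The median was 0.18 with 2 of 6 negative, against -0.031 and 53.3% negative over all genes.

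SCL-treated rats were also set against the normal diet. None of the 6 members passed edgeR (0.0083% of genes) or DESeq2 (0.332%), and 1 had an unadjusted p under 0.05, as did 6.88% of genes. This was Lpin1, with 11.5 ± 8.70 CPM (SD, n = 3) with SCL and 28.7 ± 16.5 CPM (SD, n = 3) on the normal diet. Its log2 fold change was -1.33 (SE 0.59, 95% interval -2.64 to -0.016). The unadjusted p of the edgeR fit over all genes was 0.048 and the adjusted p was 0.66, and the groups overlap. Limma-voom with quality weights called 1 member, again Lpin1 (log2 fold change -2.28, SE 0.43, adjusted p = 0.038), and 1.26% of genes. Without SCL-treated replicate 2 the edgeR value was -2.15 (SE 0.58, adjusted p = 0.77). In the same comparison 7 of 7 macrophage markers (median -0.37) and 7 of 8 hepatocyte markers (median -0.37) had a negative log2 fold change. So did 4 of 6 stellate cell markers (median -0.75), 3 of 5 sinusoidal endothelium markers (median -0.20) and 1 of 4 adipocyte markers (median 0.15). Limma-voom called the macrophage marker Cd163. The part of these cell types in the Lpin1 difference was not tested. The groups did not overlap for 1 member, Dgat2, and for 15.3% of genes. Dgat2 averaged 360.9 ± 86.5 CPM (SD, n = 3) with SCL and 254.5 ± 27.9 CPM (SD, n = 3) on the normal diet, a log2 fold change of 0.50 (SE 0.31, 95% interval -0.18 to 1.19, edgeR adjusted p = 0.67). It was 0.28 without SCL-treated replicate 3 and 0.26 with library totals in place of TMM.

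Gpam stood at -1.26 against the normal diet (SE 0.88, 95% interval -3.20 to 0.68), Agpat2 at -0.59 (SE 0.64, -2.001 to 0.82) and Lpin2 at 0.67 (SE 0.36, -0.14 to 1.48). Both values rested on SCL-treated replicate 2, which held the lowest Agpat2 and the highest Lpin2 of the 9 libraries. Without it Agpat2 stood at -0.085 and Lpin2 at 0.048, and without SCL-treated replicate 3 Agpat2 stood at -1.19. Dgat1 stood at -0.042 (SE 0.27, -0.64 to 0.56). The median over the 6 was -0.32 with 4 negative, against 0.026 and 48.2% negative over all genes. The SCL-treated rats are in 2 of the comparisons and every group serves in 2, so the 3 comparisons share libraries.

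**Figure D3:**
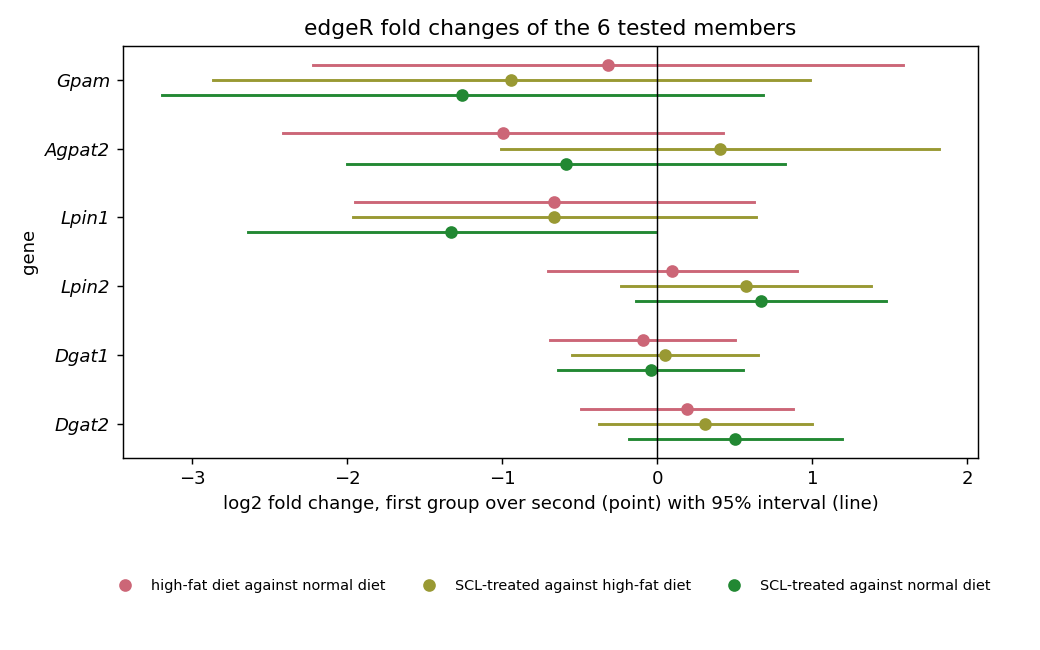
Log2 fold change (horizontal axis) of each tested member in the 3 comparisons from edgeR, with 95% intervals as lines. Every interval includes 0 except that of Lpin1 in SCL-treated against normal diet rats, which runs from -2.64 to -0.016.

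Ratios of reads within a library compare paired enzymes without any scaling between libraries. The ratio of Lpin1 to Lpin2, the lipins of the phosphatase step, was lowest with SCL. Its log2 value in normal diet replicates 1, 2 and 3 was 0.28, 0.62 and -1.70. It was -0.28, -1.10 and -1.18 with the high-fat diet and -2.38, -1.89 and -2.07 with SCL. All 3 SCL-treated values lie below all 6 others. The difference was -1.26 from the high-fat diet and -1.85 from the normal diet, each with an exact two-sided permutation p = 0.1, the smallest that 3 against 3 samples allow, and an adjusted p of 0.45 over 9 ratio tests. SCL-treated replicate 2 reached its low ratio through high Lpin2 (79.8 CPM), and the other SCL-treated libraries through low Lpin1 (6.19 and 6.76 CPM).

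The ratio of Dgat2 to Dgat1, the enzymes of the last step, had means of 2.93 ± 0.47 (SD, n = 3) with normal diet, 3.17 ± 0.57 with high-fat diet and 3.45 ± 0.49 with SCL. These groups overlapped in all 3 comparisons, with adjusted p = 0.9 in each by exact permutation. The ratio of Gpam to Agpat2, the first acylation to the next, ranged from -3.31 to 0.67 and overlapped in all 3 comparisons.

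**Figure D4:**
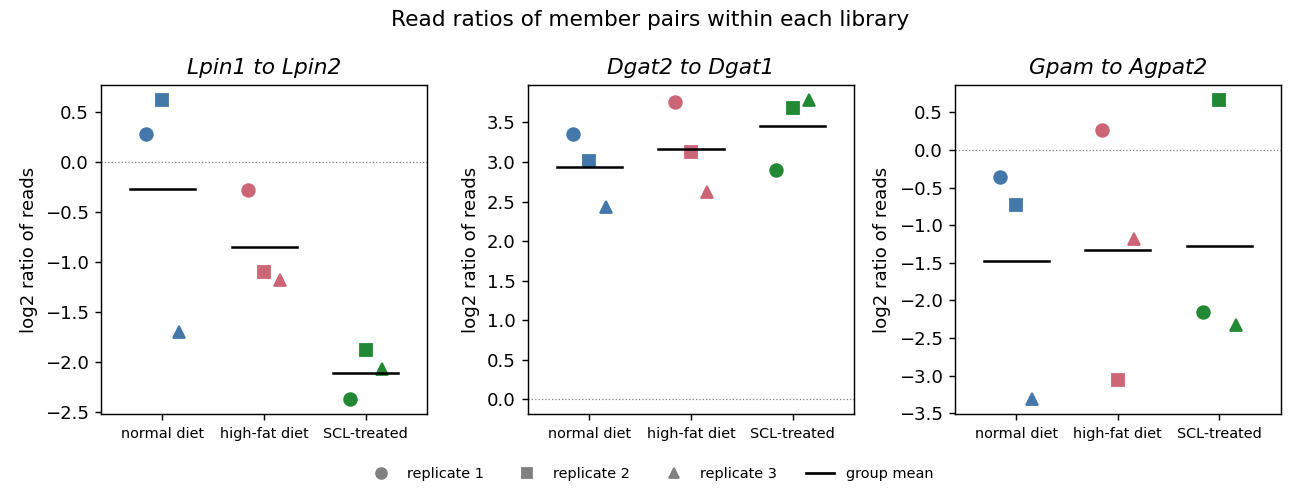
Log2 ratio of reads (vertical axis) of the 3 enzyme pairs in each library by group (horizontal axis), with points for libraries and lines for group means. The SCL-treated values of Lpin1 to Lpin2 lie between -2.38 and -1.89, below the other 6 libraries.

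The levels of some members moved with the mitochondrial share of the library, which is no label of the design. Over the 9 libraries log2 CPM of Agpat2 correlated with the log2 share at r = -0.84 (exact permutation p = 0.0043, adjusted over 6 members 0.013) and rho = -0.62 (p = 0.086, adjusted 0.17). Without the 2 libraries farthest from the median share, r was -0.44, so the relation rests largely on them. Lpin2 had r = 0.68 (exact permutation p = 0.0030, adjusted 0.013) and rho = 0.82 (p = 0.011, adjusted 0.052), with r = 0.72 without the 2 libraries. Gpam had r = -0.72 (exact permutation p = 0.031, adjusted 0.061) and rho = -0.78 (p = 0.017, adjusted 0.052), with r = -0.96 without them. At an adjusted p under 0.05, Agpat2 and Lpin2 passed by r but not by rho, and Gpam passed by neither. Pooled over groups, Lpin1 (r = -0.29, exact permutation p = 0.45, rho = -0.45, p = 0.23), Dgat1 (r = 0.054, p = 0.89, rho = 0.18, p = 0.64) and Dgat2 (r = -0.25, p = 0.51, rho = -0.067, p = 0.88) did not pass the threshold either. Without the 2 libraries their r was -0.66, 0.71 and -0.075. Within groups, as deviations from the group means, r was -0.78 for Agpat2, -0.73 for Dgat2, 0.69 for Lpin2, -0.67 for Gpam, 0.13 for Dgat1 and -0.067 for Lpin1.

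The fold changes of several members moved when the share entered the edgeR fit as a covariate. On the high-fat diet Agpat2 went from -0.99 to -0.34 (SE 0.52), Gpam from -0.32 to 0.31 (SE 0.68) and Dgat2 from 0.19 to 0.41 (SE 0.27), while Lpin1 stayed at -0.66 (SE 0.65). Against the normal diet, SCL-treated Gpam went from -1.26 to 0.076, Lpin2 from 0.67 to 0.21 and Agpat2 from -0.59 to -0.23, while Lpin1 stayed at -1.33 (SE 0.78, adjusted p = 0.90). Against the high-fat diet, SCL-treated Gpam went from -0.94 to -0.23 and Agpat2 from 0.41 to 0.11. Without the 2 libraries over 40% mitochondrial, Agpat2 on the high-fat diet stood at -0.72 (SE 0.30, edgeR adjusted p = 1.00), Gpam at 0.082 and Dgat2 at 0.38.

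**Figure D5:**
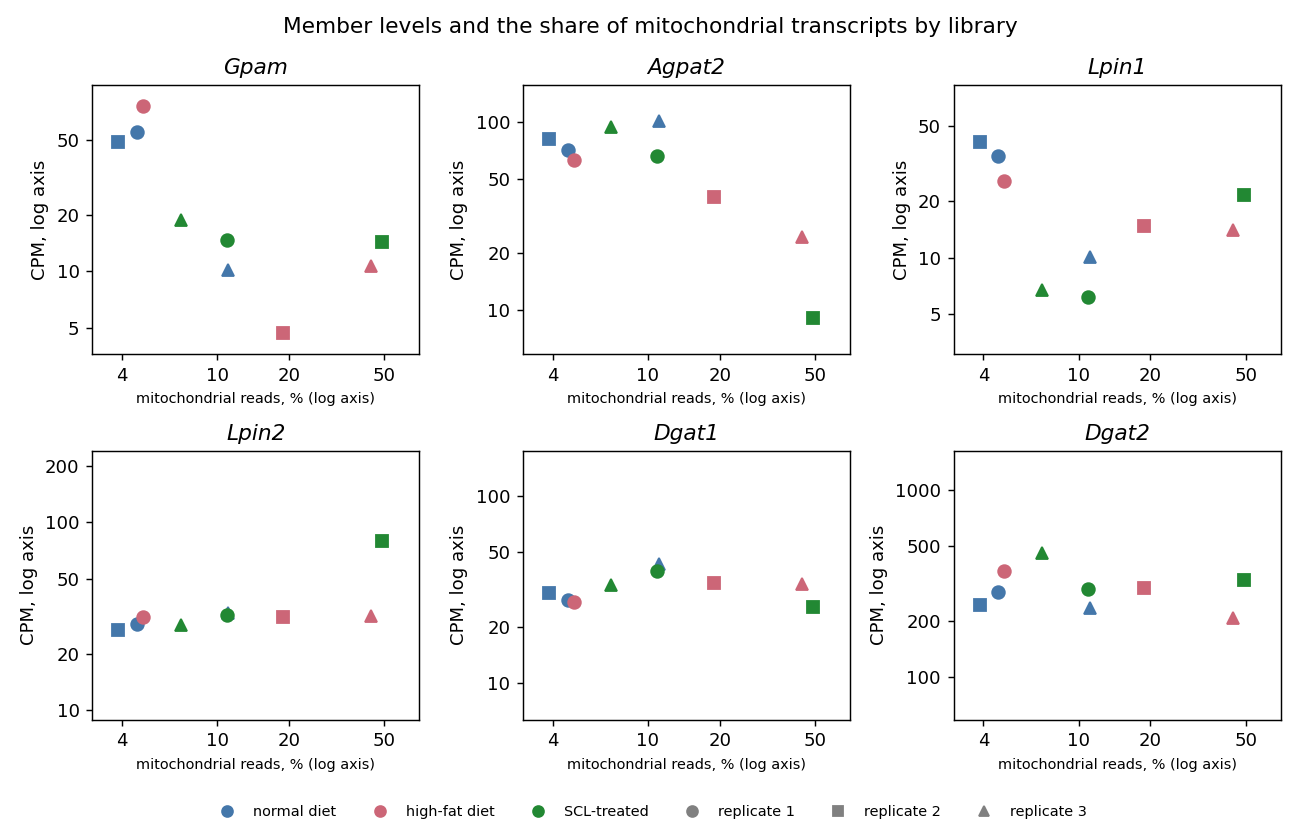
CPM of the 6 tested members (vertical log axis) against the mitochondrial share of reads in % (horizontal log axis), 1 point for each library, coloured by group. Gpam is highest in the 3 libraries at or below 4.90%, and Agpat2 is lowest in the 2 libraries above 40%.

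Of 15 pairs of members none had a correlation with an adjusted p under 0.05. The lowest Pearson p was that of Agpat2 and Lpin2, with r = -0.84 (exact permutation p = 0.024, adjusted 0.20) and rho = -0.42 (p = 0.27, adjusted 0.55). Their r was -0.24 without the 2 libraries farthest from the median level of Agpat2. Lpin1 and Dgat1 had r = -0.73 (exact permutation p = 0.027, adjusted 0.20) and rho = -0.68 (p = 0.050, adjusted 0.48). Here r was -0.76 without the 2 libraries farthest from the median level of Lpin1. Gpam and Lpin1 had r = 0.61 (exact permutation p = 0.084, adjusted 0.41) and rho = 0.48 (p = 0.19, adjusted 0.55).

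Among 6635 genes, those whose log2 CPM followed a member most closely over the 9 libraries were named as a description, since the libraries share their depth and mitochondrial share. Parp14 (r = 0.99) and G3bp2 (0.98) were nearest to Gpam, and Clta (0.98) and Kars (0.98) to Agpat2. Itpr1 (0.95) and Pde4dip (0.95) were nearest to Lpin1, and Ccni (0.95) and Matr3 (0.94) to Lpin2. Dgat1 was followed by Ahsa1 (0.96) and Suclg1 (0.95), and Dgat2 by Uox (0.92) and Slc16a7 (0.92).

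None of the other genes of the pathway passed edgeR or DESeq2 in any comparison. Limma-voom called 1, Gpat3, in SCL-treated against normal diet rats. Of 12 other acyltransferases, lipins and related enzymes 9 were tested. Their median log2 fold change was 0.078 on the high-fat diet, -0.20 for SCL against the high-fat diet and -0.019 for SCL against the normal diet. In these comparisons 2, 0 and 2 of them had an unadjusted edgeR p under 0.05. Over all genes 4.32%, 1.95% and 6.88% did, the shares to set beside each such count below. Gpat4, which acts at the first step in the endoplasmic reticulum, stood at 0.078 (SE 0.28), -0.097 and -0.019 in those comparisons. Agpat3, an acyltransferase of the same step as Agpat2, stood at -0.85 (SE 0.32), -0.15 and -0.99 (SE 0.32). Gpat3, another acyltransferase of the first step, chosen after its values were seen, stood at -2.31 (SE 0.92), -0.89 and -3.20 (SE 0.97), at a mean of only 2.95 CPM.

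Of 6 genes that supply glycerol 3-phosphate 4 were tested, and their medians were -0.20, 0.11 and -0.18, with 0 at an unadjusted p under 0.05. Gpd1, which makes it from a glycolytic intermediate, stood at 0.33 (SE 0.49), -0.46 and -0.13. Gk, glycerol kinase, stood at 0.13 (SE 0.28), 0.18 and 0.31. Of 14 genes for other uses of phosphatidic acid and diacylglycerol 13 were tested, with medians of -0.21, -0.11 and -0.20 and 1, 0 and 0 at an unadjusted p under 0.05. Plpp3, a lipid phosphatase, stood at -1.12 (SE 0.50), 0.38 and -0.74, and Chpt1, which turns diacylglycerol into phosphatidylcholine, at -0.59 (SE 0.41), 0.16 and -0.43. Ctdnep1 (-0.049, 0.18 and 0.13) and Cnep1r1 (-0.49, 0.30 and -0.19), subunits of the phosphatase that activates lipins, had medians of -0.27, 0.24 and -0.029.

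All 14 regulators were tested, with medians of 0.023, -0.38 and -0.21. Of them 4, 1 and 2 had an unadjusted edgeR p under 0.05, as did 4.32%, 1.95% and 6.88% of all genes. The 4 on the high-fat diet, named after their values were seen, were Srebf1, Mlxipl (1.06, SE 0.40), Pparg (1.11, SE 0.41) and Ppargc1a (-2.55, SE 0.97). For SCL against the high-fat diet the 1 was Foxo1 (-2.11, SE 0.92). Against the normal diet the 2 were Foxo1 (-2.12, SE 0.92) and Ppargc1a (-2.34, SE 0.97), also named after their values were seen. Ppargc1a had a mean of only 1.30 CPM. Creb3l3 stood at -0.82 (SE 0.41), 0.21 and -0.60, and Hnf4a at -0.14 (SE 0.40), -0.61 and -0.75. Srebf1, which encodes SREBP-1c and was chosen after its values were seen, stood at 97.1, 32.7 and 34.3 CPM on the normal diet, 551.5, 168.7 and 38.6 CPM on the high-fat diet and 100.8, 104.6 and 327.8 CPM with SCL. Its highest value fell in high-fat diet replicate 1, the library with the highest Gpam, and its log2 fold change on the high-fat diet was 2.21 (SE 0.86, edgeR adjusted p = 0.91). Its second highest value fell in SCL-treated replicate 3, where Gpam was 18.7 CPM. The lowest Srebf1 value fell in normal diet replicate 2, where Gpam was 48.7 CPM. A relation of Srebf1 to Gpam was not tested. Of 10 genes of triglyceride storage and breakdown 8 were tested, with medians of -0.20, -0.36 and -0.37 and 2, 1 and 3 at an unadjusted p under 0.05. G0s2, an inhibitor of triglyceride lipase, stood at 1.36 (SE 0.51), -0.25 and 1.11 (edgeR adjusted p = 0.91, 1.00 and 0.66), and Hsd17b13, a lipid droplet protein, at -0.99 (SE 0.50), 0.83 and -0.16.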

How the data were processed

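Rat liver RNA was sequenced by the submitters in 9 libraries, 3 for each group. The authors deposited 2 tables, and per the file headers the columns are raw read counts and FPKM per gene and library, next to log2 fold changes from the authors with a p-value and an adjusted p-value. Per the submitters' processing notes DESeq2 was used and the genome build was mm9, a mouse build. Rat RefSeq names were found for 92.6% of the shared gene symbols. No match rate to mouse names was computed beside it, so the build that the reads were counted on is not settled. Not given in the sources used here are the aligner, the counter and any use of strand. Genes that overlap or have a close copy are therefore uncertain.

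The 15565 genes in both tables were kept. Counts and FPKM of the high-fat diet libraries were identical in both. No 2 libraries of a group agreed within sampling noise (the lowest chi-square divided by its degrees of freedom was 38.5). The counts were fitted in edgeR 4.0.16 (R 4.3.3) with group as the only term, all 9 libraries, a minimum count of 10 in filterByExpr (12041 genes), TMM scaling and the quasi-likelihood test. Benjamini-Hochberg adjustment ran over all genes tested, with calls under 0.05. The standard error was obtained from F as |log2 fold change|/sqrt(F), and 95% intervals use the test's degrees of freedom. CPM uses TMM-scaled totals. Read ratios add 0.5 reads to each gene and were compared by exact two-sided permutation tests.

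Alternatives were DESeq2 1.42.0, limma 3.58.1 (voom with quality weights), other scalings, no count filter, a replicate block, the mitochondrial share as covariate, and libraries left out. The edgeR, DESeq2 and limma steps were tested on simulated counts. The members, gene lists and tests were chosen with earlier results of these data known. All members are named. From each gene list the text names the 2 most abundant genes where none was called, and says where others were chosen after their values were seen. For each tested member it also names the 2 genes, other than members, mitochondrial transcripts and predicted loci, with the highest Pearson correlation of log2 CPM among genes with a mean of at least 3 log2 CPM. Promoter sequences and their coordinates are from RefSeq, assembly GRCr8, matched by symbol for 6 of the 8 symbols. Python 3.11.15, pandas 2.3.3, SciPy 1.17.1 and matplotlib 3.10.9 were used.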

Additional observations from a re-analysis of the deposited data

How the results depend on the processing

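The 18 member fold changes gave 342 values under the alternatives. Of these 319 kept their direction and side of the threshold, 22 turned and 1, Lpin1 in SCL-treated against normal diet rats under limma-voom, passed the threshold (-2.28, adjusted p = 0.038, 1 member called). With high-fat against normal diet, 1 gene was called in all. DESeq2 called 50, limma-voom 26, the fit without a count filter 2, and library totals, only the 6 libraries compared, and no libraries over 40% mitochondrial 0 each, and leaving out 1 library gave 1 to 4 (4 without normal diet replicate 3, 2 without high-fat diet replicate 3). With SCL-treated against high-fat diet, 0 genes were called by edgeR (235 at an unadjusted p under 0.05), and DESeq2 called 1. With SCL-treated against normal diet, 1 gene was called by edgeR, 40 by DESeq2, 152 by limma-voom, 0 with library totals and 0 without the libraries over 40% mitochondrial. Leaving out 1 library gave 0 to 1, with 0 without normal diet replicate 1 or 2, high-fat diet replicate 2 or any SCL-treated replicate.

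Turned values were, for limma-voom, Dgat1 0.12 on the high-fat diet and 0.23 for SCL against the normal diet, and Gpam 0.84 for SCL against the high-fat diet. With the mitochondrial share as a covariate Gpam was 0.31 and Lpin2 -0.23 on the high-fat diet, and Gpam 0.076 for SCL against the normal diet. Without the libraries over 40% mitochondrial Gpam was 0.082 on the high-fat diet, Lpin2 -0.048 for SCL against the high-fat diet and Dgat1 0.10 for SCL against the normal diet. There the log2 ratio of Dgat2 to Dgat1 was -0.10 and that of Gpam to Agpat2 -0.84 for SCL against the high-fat diet, and Gpam to Agpat2 -0.77 against the normal diet. With library totals Dgat1 was -0.069 for SCL against the high-fat diet, and the median of all genes moved from -0.031 to -0.19 there and from 0.026 to -0.21 for SCL against the normal diet. The cause of these turns was not tested.

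Leaving out 1 library gave, on the high-fat diet, -2.32 to 0.18 for Gpam, -1.07 to -0.32 for Lpin1, -1.41 to -0.72 for Agpat2, -0.22 to 0.12 for Dgat1 and -0.017 to 0.38 for Dgat2. For SCL against the high-fat diet it gave -1.46 to 1.06 for Gpam, -0.10 to 0.21 for Dgat1, -0.045 to 0.83 for Lpin2 and -0.18 to 0.91 for Agpat2, and against the normal diet -0.21 to 0.17 for Dgat1, -1.19 to -0.085 for Agpat2 and 0.28 to 0.62 for Dgat2. The ratio of Dgat2 to Dgat1 ran from -0.060 to 0.51 on the high-fat diet. Gpam to Agpat2 ran from -0.78 to 1.01 on the high-fat diet, -0.91 to 0.86 for SCL against it and -0.77 to 0.75 against the normal diet. Lpin1 to Lpin2 kept its sign, at -1.42 to -0.97 for SCL against the high-fat diet and -2.56 to -1.40 against the normal diet. With the replicate block 1, 0 and 1 genes and 0 members were called, and Lpin1 in SCL-treated against normal diet rats was -1.28. Deviations of 9 same-numbered pairs correlated at -0.35 to 0.60, over 0.1 in 4, and 3 of 9 libraries correlated best with their own number, so the numbers were not taken as pairs. With 3 libraries a group and a spread estimated over all 9, fold changes as wide as the intervals of Gpam and Agpat2 cannot be resolved. For Agpat2 on the high-fat diet the SE was 0.64 in that fit and 0.36 with only the 6 libraries compared.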
